A study of Homo sapiens with 27 samples.

Results

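Expression of 10 genes that guard the epithelial state was followed over the doxycycline time course in LS174T human colorectal carcinoma cells: GRHL1, GRHL2, OVOL1, OVOL2, ESRP1, ESRP2, ELF3, EHF, KLF4 and KLF5. They were chosen by gene name as grainyhead, OVO-like, ETS and KLF transcription factors and epithelial splicing regulators, and every probe that the platform annotation assigns to them was taken. These 10 genes have 13 of the 47323 probes of the table, and 9 of them are among the 13510 genes tested. The SNAI1 line carries a doxycycline-inducible mouse Snail1 transgene with an HA tag, the LEF1 line carries a mouse Lef1 transgene of the same kind, and the control line is labelled as overexpressing nothing. All are derivatives of LS174T, and the labels describe doxycycline at 0.1 µg/ml, renewed after 48 h. Of the 27 arrays, 11 belong to the SNAI1 line (2 each at 0, 6, 48 and 96 h, 1 each at 3, 24 and 72 h), 7 to the LEF1 line (2 each at 0, 6 and 72 h, 1 at 24 h) and 9 to the control line (2 each at 0 and 6 h, 1 each at 3, 24, 48, 72 and 96 h). The labels say neither whether each line is 1 clone nor whether arrays of a group came from separate cultures, so the p-values below measure the spread between these arrays, which may be technical.

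Grainyhead factors bind the control regions of junction and other epithelial genes and keep them open to transcription. OVO-like zinc finger proteins repress genes of the mesenchymal program, among them members of the ZEB family, and ESRP proteins bind RNA and keep the epithelial splice forms of their target transcripts. ELF3 and EHF are ETS factors restricted to epithelia. KLF4 is found mostly in differentiated cells of the gut surface, KLF5 in the proliferating cells of the crypt. SNAI1 is a repressor that binds E-box sequences, and LEF1 is a DNA-binding partner of beta-catenin.

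After 24 h or longer of doxycycline, 5 of the 9 genes tested were lower in the SNAI1 line than in the control line, each taken relative to its own 0 h: EHF, GRHL2, ELF3, OVOL2 and ESRP1. Over all 13510 genes 8.69% were called in that comparison, 4.8% as lower. No member was higher, and GRHL1, OVOL1, KLF4 and KLF5 did not pass the test. EHF showed the largest fall of these genes, with a log2 change of -3.32 (SE 0.52). In the LEF1 line 0 of 9 passed the same test, with 1.15% of all genes called, and none passed at 3 and 6 h in the SNAI1 line or at 6 h in the LEF1 line, with 0% of all genes called in either comparison.

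Promoter sequences of EHF and ELF3, the ETS members that fell in the SNAI1 line, are shown because the SNAI1 protein binds E-boxes. RefSeq promoter windows (GRCh38.p14, 250 bases before to 50 after a start) were matched by gene for 5 of the 10 members, EHF, ELF3, GRHL1, KLF4 and KLF5, in 7 windows. Capitals mark the E-box, read here as CACCTG, which is CAGGTG on the other strand. The windows lie on the plus strand at chr1:202010337-202010636 for ELF3 and at chr11:34624007-34624306 and chr11:34632316-34632615 for separate starts of EHF.
ELF3: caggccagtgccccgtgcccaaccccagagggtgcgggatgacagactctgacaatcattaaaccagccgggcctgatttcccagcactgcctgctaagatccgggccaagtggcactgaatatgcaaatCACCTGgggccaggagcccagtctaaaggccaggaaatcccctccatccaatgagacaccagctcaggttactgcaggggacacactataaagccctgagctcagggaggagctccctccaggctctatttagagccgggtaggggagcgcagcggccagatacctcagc
EHF, first start: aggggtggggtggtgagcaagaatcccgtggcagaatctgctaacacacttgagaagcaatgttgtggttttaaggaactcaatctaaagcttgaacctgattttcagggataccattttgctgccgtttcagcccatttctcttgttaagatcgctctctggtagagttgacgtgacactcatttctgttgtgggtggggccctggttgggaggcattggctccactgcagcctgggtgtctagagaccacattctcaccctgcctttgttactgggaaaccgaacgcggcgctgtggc
EHF, second start: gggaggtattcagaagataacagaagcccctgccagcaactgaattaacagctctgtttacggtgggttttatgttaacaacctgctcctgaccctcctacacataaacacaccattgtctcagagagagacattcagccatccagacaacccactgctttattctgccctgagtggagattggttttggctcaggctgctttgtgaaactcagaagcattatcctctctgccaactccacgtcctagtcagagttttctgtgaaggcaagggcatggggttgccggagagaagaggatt
The ELF3 window holds the E-box at chr1:202010467-202010472, 120 bases before the start, and is the only one of the 7 windows with CAGGTG on either strand. The same letters are found in 20.6% of the 35116 windows of that length, so this match is a description and not a known binding site. The grainyhead motif AACCGGTT (0.134% of all windows) and the TCF/LEF motifs CTTTGAA (4.43%) and CTTTGAT (2.62%), searched on both strands, are in none of the 7, which says only that these letters are not in these windows.

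Values are log2 intensities after background correction and quantile normalization, and levels of different probes are not comparable. A probe was called detected on an array at a detection p below 0.01. GRHL2, OVOL2, ELF3, EHF, KLF4 and KLF5 were detected on all 27 arrays, ESRP1 on 23 and OVOL1 on 13. The 3 probes of GRHL1 were detected on 0, 7 and 1 arrays, and the 1 probe of ESRP2 on 1 array, a LEF1 line array at 72 h, where it read 5.59. ESRP2 was therefore not tested, and GRHL1 lay near the limit of detection. The arrays fall into 2 sets by the form of their detection p: set 1 holds all 11 SNAI1 line arrays and 7 control line arrays, and set 2 all 7 LEF1 line arrays with control line 0 h replicate 2 and 6 h replicate 1. Set 1 arrays detected 18241 to 19683 probes and set 2 arrays 14766 to 15918, so values are also given from set 1 alone and with the set as a block. Of 10 markers of colon epithelium 7 were detected on all 27 arrays and none on 0 arrays. Of 10 markers of fibroblasts, immune and endothelial cells CD68 alone was detected on all arrays, PDGFRB and PECAM1 on none and the other 7 on 1 to 5. The transgenes are of mouse origin: the human SNAI1 probe was detected on 0 arrays, so it gives no check of the labels, and whether it can bind the mouse transcript was not tested. CDH1, the E-cadherin gene that SNAI1 is known to repress, averaged 9.36 at 96 h in the SNAI1 line against 11.54 on the control line array at that time. RNA was extracted from whole cultures, so fewer cells with a transcript and less of it per cell cannot be told apart.

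**Figure D1:**
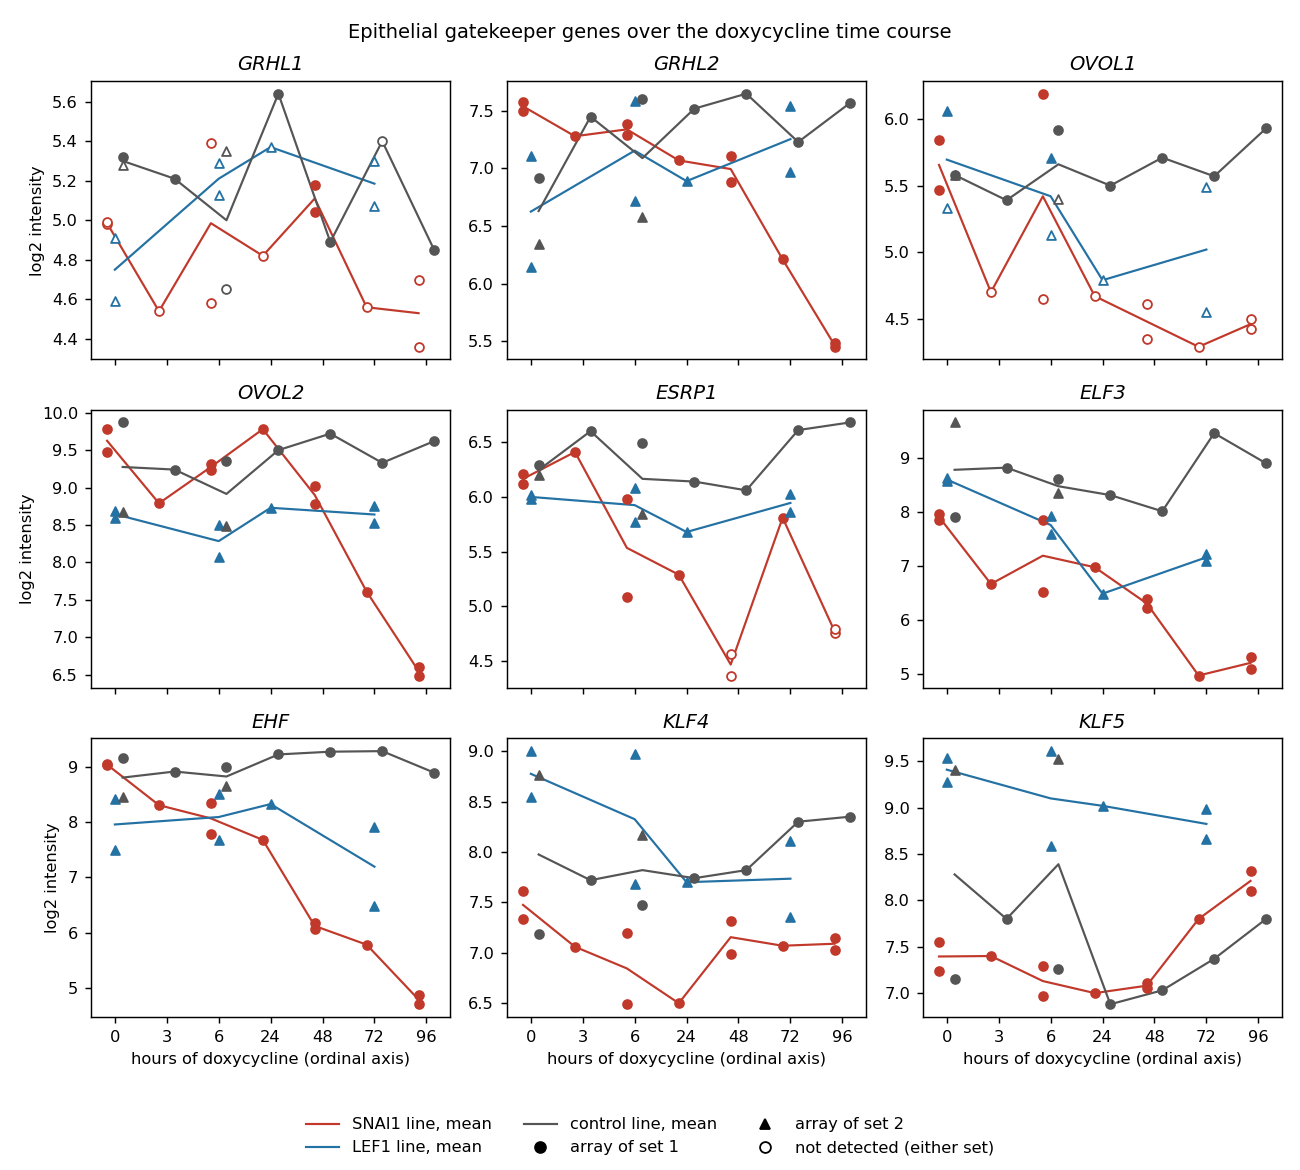
Log2 intensity (vertical axis) of the 9 tested gatekeeper genes against hours of doxycycline on an ordinal axis, with 1 symbol per array, open where the probe was not detected, and lines through the group means. EHF falls to 4.87 and 4.70 at 96 h in the SNAI1 line while the control line stays between 8.46 and 9.29, and OVOL2 and GRHL2 are at their lowest at 96 h.

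GRHL2, the grainyhead factor best known for holding epithelial junction genes active, fell 3.90-fold late in the SNAI1 line. It read 7.58 and 7.50 at 0 h, 7.28 at 3 h, 7.29 and 7.39 at 6 h, 7.07 at 24 h, 7.11 and 6.88 at 48 h, 6.21 at 72 h, and 5.48 and 5.45 at 96 h. The control line read 6.92 and 6.34 at 0 h, 7.45 at 3 h, 6.58 and 7.60 at 6 h, 7.52 at 24 h, 7.65 at 48 h, 7.23 at 72 h and 7.57 at 96 h. The SNAI1 line arrays of 72 and 96 h were lower than every control line array, and those of 24 and 48 h lay inside the range of all control line arrays. The 7 control line arrays of set 1, the set of the SNAI1 line, lay between 6.92 and 7.65, above the 48 h array at 6.88. The late change relative to the control line was -1.97 (95% interval -2.96 to -0.97, adjusted p = 0.0157 in limma). Part of it is the control line's own difference, which was 0.86 late against its 0 h (SE 0.334, not called). All late control line arrays are of set 1, while the 0 h array at 6.34 is of set 2. Array set and time are therefore mixed in that difference. Against its own 0 h alone the SNAI1 line changed by -1.10 (SE 0.32, adjusted p = 0.0251). The change was -1.57 with the array set as a block (adjusted p = 0.0419) and -1.67 in set 1 alone (0.00412). With the authors' normalized values and without background correction it was smaller, at -1.16 (adjusted p = 0.0162 and 0.0161). It lost its call without control line 0 h replicate 2 (-1.67) or SNAI1 line 0 h replicate 1 (-1.93) or 2 (-2.01). It also lost its call without control line 96 h (-1.62, adjusted p = 0.0719 in limma). That is the only control line array of 96 h, so this fit leaves 96 h out of the late mean of both lines.

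GRHL1, a paralogue with the same kind of DNA-binding domain, could not be measured reliably in the SNAI1 line. Its best detected probe was above background on 2 of the 6 late SNAI1 line arrays and 0 of the 2 at 0 h, against 5 of the 9 control line arrays. It ranged between 4.36 and 5.18 on the late SNAI1 line arrays and between 4.65 and 5.64 on the control line arrays. It did not pass the test (adjusted p = 0.875 in limma), and with its 0 h arrays undetected no fold is given.

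OVOL2, a repressor of the mesenchymal program, fell late and steeply, with most of the difference after 48 h. In the SNAI1 line it read 9.78 and 9.47 at 0 h, 8.79 at 3 h, 9.32 and 9.23 at 6 h, 9.78 at 24 h, 9.02 and 8.78 at 48 h, 7.61 at 72 h, and 6.61 and 6.49 at 96 h. The control line arrays had a lowest value of 8.48, a median of 9.35 and a highest of 9.87. The 7 of set 1, the set of the SNAI1 line, lay between 9.24 and 9.87. The SNAI1 line arrays of 3 and 48 h and the 6 h array at 9.23 were below these 7, the 24 h array was not. At 24 h the SNAI1 line array equalled the higher 0 h array, while at 72 and 96 h all 3 arrays were below every control line array. The log2 change from the line's own 0 h was -0.72 (SE 0.343) at 48 h, -2.01 (SE 0.42) at 72 h and -3.07 (SE 0.343) at 96 h. The late change relative to the control line was -1.68 (95% interval -2.57 to -0.80, adjusted p = 0.0191 in limma), -1.17 with the array set as a block (0.0126) and -1.09 in set 1 alone (0.0274). It did not pass without control line 0 h replicate 2 (-1.09) or SNAI1 line 0 h replicate 1 (-1.53) or 2 (-1.84). Nor did it pass without control line 96 h (-1.10, adjusted p = 0.183 in limma). That is the only control line array of 96 h, so this fit leaves out 96 h in both lines, and with it the lowest SNAI1 line values.

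OVOL1, its paralogue, became undetectable in the SNAI1 line. It read 5.47 and 5.84 at 0 h, 4.70 at 3 h, 4.65 and 6.19 at 6 h, 4.67 at 24 h, 4.61 and 4.35 at 48 h, 4.29 at 72 h, and 4.50 and 4.42 at 96 h, with 0 of the 6 late arrays detected. The control line arrays lay between 5.39 and 5.93 with a median of 5.58, and 8 of 9 were detected. All 6 late SNAI1 line arrays were below all control line arrays. From its own 0 h the gene ended at least 2.08-fold lower, a bound because the late arrays are at background (adjusted p = 0.0323 against the own 0 h). Relative to the control line the fitted change of -1.28 (95% interval -2.40 to -0.16) did not pass (adjusted p = 0.172 in limma). Of the 13 arrays that detected OVOL1, 8 are of the control line and 3 of the SNAI1 line, none of these late.

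ESRP1, the splicing regulator that was detected, fell 2.31-fold late in the SNAI1 line. It read 6.12 and 6.21 at 0 h, 6.41 at 3 h, 5.09 and 5.98 at 6 h, 5.29 at 24 h, 4.37 and 4.57 at 48 h, 5.81 at 72 h, and 4.76 and 4.79 at 96 h. The arrays at 48 and 96 h were not detected, whereas the 72 h array was, so the course did not decline steadily. The control line arrays had a lowest value of 5.84, a median of 6.29 and a highest of 6.68, all detected. The 6 late SNAI1 line arrays were all below the 9 control line arrays, by a small margin at 72 h. The late change relative to the control line was -1.21 (95% interval -1.91 to -0.50, adjusted p = 0.0345 in limma), with 4 of the 6 late arrays not detected. The size depends on the background step: it was -0.71 with an offset of 50 (adjusted p = 0.0521) and -0.49 with the authors' normalized values or without background correction (0.0758), none of which passed. It did not pass with the array set as a block (-1.02, adjusted p = 0.0846) or within set 1 (-1.16, 0.096), and among 27 fits without 1 array it lost its call in 8. Those are the fits without control line 0 h replicate 2, 48 h or 96 h, without either SNAI1 line array of 0 h or of 96 h, or without SNAI1 line 48 h replicate 1 (adjusted p up to 0.139).

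EHF, an ETS factor of gut and glandular epithelia, had the largest late fall of the 9 genes and ranked 51 among all 13510 genes by the size of its fall. In the SNAI1 line it read 9.03 and 9.06 at 0 h, 8.31 at 3 h, 7.79 and 8.35 at 6 h, 7.68 at 24 h, 6.07 and 6.17 at 48 h, 5.78 at 72 h, and 4.87 and 4.70 at 96 h. The control line arrays had a lowest value of 8.46, a median of 9.0 and a highest of 9.29. Every SNAI1 line array from 3 h on was below every control line array. So were the 2 of 6 h for 3.94% of all genes, and the 6 late ones for 6.83%. No share was taken for 3 h on as a whole. For EHF the distance widened with time. From its own 0 h the log2 change was -0.74 (SE 0.531) at 3 h, -0.98 (SE 0.434) at 6 h, -1.37 (SE 0.531) at 24 h, -2.93 (SE 0.434) at 48 h, -3.26 (SE 0.531) at 72 h and -4.26 (SE 0.434) at 96 h. The late change relative to the control line was -3.32 (95% interval -4.44 to -2.21, adjusted p = 0.00098 in limma). It was -3.06 with the array set as a block (0.00453) and -2.98 in set 1 alone (0.00183), and it passed in all 27 fits that leave out 1 array.

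ELF3, the other ETS member and a factor of intestinal epithelial differentiation, fell 3.83-fold late, with a wider spread. In the SNAI1 line it read 7.86 and 7.97 at 0 h, 6.67 at 3 h, 6.53 and 7.86 at 6 h, 6.98 at 24 h, 6.39 and 6.23 at 48 h, 4.97 at 72 h, and 5.09 and 5.32 at 96 h. The control line's arrays read 7.91 and 9.67 at 0 h, 8.83 at 3 h, 8.35 and 8.62 at 6 h, 8.32 at 24 h, 8.02 at 48 h, 9.47 at 72 h and 8.91 at 96 h. All SNAI1 line arrays from 3 h on were below the control range. But so was 1 of the 2 at 0 h, 7.86 against a lowest control value of 7.91. Of all genes 3.94% had the 2 arrays of 6 h below their control range, and 6.83% the 6 late arrays. For ELF3 the control arrays themselves spread widely, those of 0 h most of all. The late change relative to the control line was -1.94 (95% interval -3.12 to -0.76, adjusted p = 0.0416 in limma), -2.31 with the array set as a block (0.0232) and -2.82 in set 1 alone (0.0196). It did not pass with the authors' normalized values or without background correction (-1.04, adjusted p = 0.145), or with an offset of 50 (-1.41, 0.0871). Against the own 0 h it was -2.05 (SE 0.38, adjusted p = 0.00144). The call against the control line was lost in 18 of the 27 fits without 1 array. The change was -1.38 when the 72 h array of either line was dropped (adjusted p = 0.223 in limma), which takes 72 h out of the mean of both lines. Without control line 0 h replicate 1 it was -1.06. The call held only without control line 0 h replicate 2, 3 h, 24 h or 48 h, SNAI1 line 3 h, 24 h or either 6 h array, or LEF1 line 24 h.

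KLF4 and KLF5, zinc finger factors of the differentiated and the proliferating gut epithelium, did not pass. KLF5 read 7.24 and 7.55 at 0 h, 7.40 at 3 h, 6.97 and 7.29 at 6 h, 7.0 at 24 h, 7.05 and 7.11 at 48 h, 7.80 at 72 h, and 8.10 and 8.32 at 96 h in the SNAI1 line. The control line read 7.15 and 9.41 at 0 h, 7.80 at 3 h, 9.52 and 7.26 at 6 h, 6.88 at 24 h, 7.03 at 48 h, 7.37 at 72 h and 7.80 at 96 h. The 2 control arrays of set 2 stood far above the 7 of set 1, and those of set 1, between 6.88 and 7.80, overlapped the SNAI1 line's arrays. The late change relative to the control line was 1.14 (95% interval -0.57 to 2.86, adjusted p = 0.468 in limma), against 0.01 within set 1 and 0.01 with the set as a block. KLF4 ranged between 6.50 and 7.32 with a median of 7.05 on the late SNAI1 line arrays, and between 7.19 and 8.76 with a median of 7.82 on the control line arrays. Its late change was -0.60 (95% interval -1.87 to 0.67, adjusted p = 0.638) for the probe used and -0.24 for its other probe. Within set 1 it passed at -1.39 (adjusted p = 0.048), so for KLF4 the call depends on which control arrays are used.

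**Figure D2:**
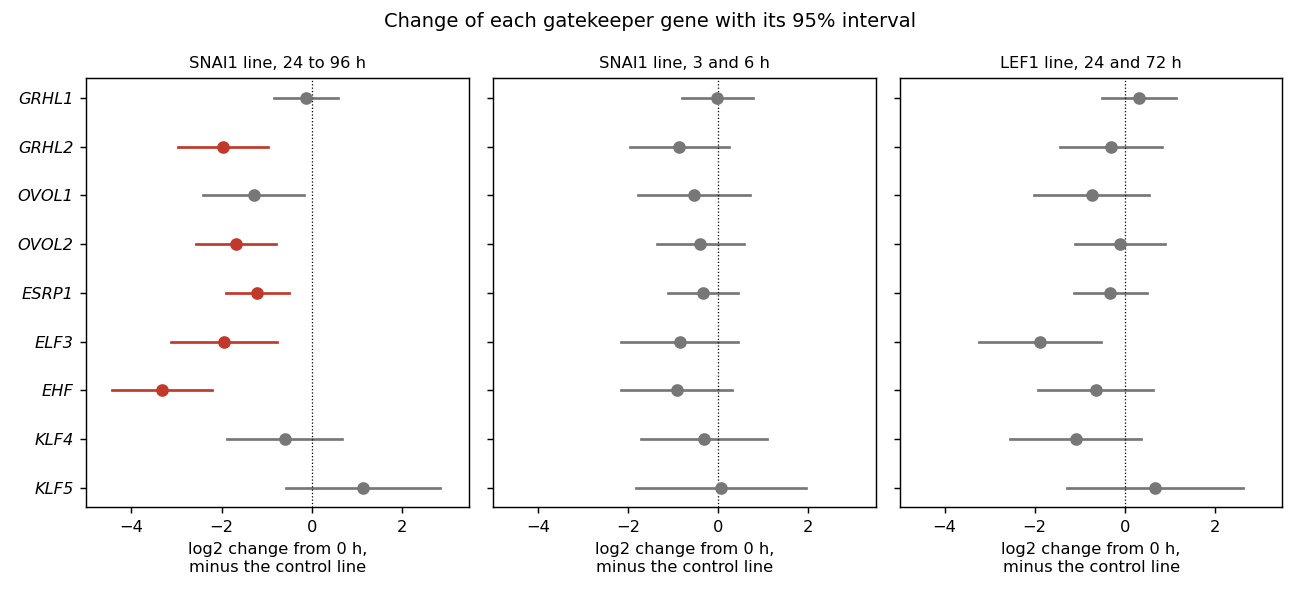
Log2 change from 0 h minus the control line (horizontal axis, points with 95% intervals) for each tested gene, late and early in the SNAI1 line and late in the LEF1 line, red where the adjusted p is below 0.05. EHF at -3.32, GRHL2, ELF3, OVOL2 and ESRP1 are red in the late SNAI1 panel, and no gene is red in the other panels.

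Read against all genes, 5 of 9 members were lower late in the SNAI1 line and 0 higher, where 4.8% of the 13510 genes were lower and 3.89% higher. The median change of the 9 members was -1.28, against 0.02 over all genes. Relative to the line's own 0 h alone, 6 of 9 were lower (GRHL2, OVOL1, OVOL2, ESRP1, ELF3 and EHF), where 9.76% of all genes were lower and 10.3% higher. OVOL1, ESRP1, ELF3 and EHF had all 6 late arrays below all 9 control line arrays, a pattern shown by 6.83% of all genes. At 72 h 8 of 9 members, all but KLF5, were below all control line arrays (22.1% of genes), and at 96 h 7 were, all but GRHL1 and KLF5 (18% of genes). The percentage counts genes of any level, and members were chosen by name with earlier results of these data known.

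At 3 and 6 h limma called 0 members in the SNAI1 line, and 0% of all genes. None of the 9 members had an unadjusted p under 0.05, against 337 of 13510 genes. EHF had the lowest early estimate, -0.92 (SE 0.574), followed by GRHL2 at -0.86 (SE 0.511) and ELF3 at -0.85 (SE 0.606). Both 6 h arrays were below all control line arrays for ELF3 and EHF, as for 3.94% of genes, and for ELF3 1 of the 0 h arrays was as well. The 6 h arrays disagreed with each other: replicate 1 read 6.53 for ELF3 and 4.65 for OVOL1, replicate 2 read 7.86 and 6.19, close to the values of 0 h. Without replicate 2 the early estimates were -1.18 for ELF3 and -1.06 for EHF, and without replicate 1 they were -0.52 and -0.78, with no call in either case.

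The late effect exceeded the early one for EHF (log2 difference -2.40, SE 0.473, adjusted p = 0.00508 in limma) and OVOL2 (-1.29, SE 0.373, adjusted p = 0.0483). No other member passed, though 8 of the 9 estimates were negative. Among them were GRHL2 (-1.11, SE 0.421), ELF3 (-1.09, SE 0.499) and ESRP1 (-0.88, SE 0.299). Against the own 0 h only, ELF3 (-1.07, adjusted p = 0.0387 in limma) and ESRP1 (-0.89, 0.00646) passed. When replicate numbers of the LEF1 line entered the model as a block, GRHL2 passed too (-1.11, adjusted p = 0.039, against 0.138 without it). It also passed within set 1 (-0.85, adjusted p = 0.0154) and against the own 0 h only (-0.88, 0.0426). Without a block and with the control line subtracted over all arrays, this contrast called 8.29% of all genes, 4.36% as lower. OVOL2 kept this call in 9 of 27 fits without 1 array, while EHF kept it in all 27. Without control line 96 h, which takes 96 h out of the late mean of both lines, the OVOL2 difference was -0.71 (adjusted p = 0.418 in limma). Across the 11 SNAI1 line arrays, which share a time course, the closest pair among the members was GRHL2 with OVOL2 (Pearson r = 0.96), followed by ELF3 with EHF (0.92) and GRHL2 with EHF (0.91). KLF5 ran opposite to OVOL2 (-0.89) and GRHL2 (-0.83). ESRP1, lowest at 48 h, correlated at 0.38 with OVOL2. These coefficients describe 11 arrays ordered by time and carry no test.

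The genes whose values were most like each fallen member were picked by Pearson correlation over the 20 arrays of the SNAI1 and control lines, so their own late changes are not independent of the choice. EHF was closest to LRRC26, a regulatory subunit of potassium channels (r = 0.983), COMTD1 (0.982) and ATP8B1, a phospholipid flippase (0.979), which fell by 4.16, 1.70 and 2.11 on the log2 scale. ELF3 was closest to the calpain gene CAPN12 (0.961), the tubulin-like gene TUBAL3 (0.960) and the receptor gene GPR35 (0.953). OVOL2 was closest to SDHA, a subunit of succinate dehydrogenase (0.958), and SHMT1, a serine hydroxymethyltransferase (0.954), and GRHL2 to MRPL23 and ATP5MC1 of the mitochondria (0.935 and 0.933). ESRP1 was closest to the integrin gene ITGB4 (0.927), which itself did not pass (-1.18, adjusted p = 0.285). These arrays share lines, times and array sets, so the likeness is a description.

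In the LEF1 line limma called 0 of 9 members at 24 and 72 h, where 1.15% of all genes were called and 0.266% were lower. ELF3 was the 1 member with an unadjusted p under 0.05, against 1587 genes. ELF3 read 8.64 and 8.58 at 0 h, 7.93 and 7.60 at 6 h, 6.49 at 24 h, and 7.10 and 7.23 at 72 h in the LEF1 line. All 3 late arrays were below the 2 of 0 h, a pattern for which no share of genes was taken. They were also below all 9 control line arrays, as for 7.62% of genes, and 7 of those 9 are of the other array set. Relative to the control line the change was -1.89 (95% interval -3.23 to -0.54, adjusted p = 0.214 in limma). Over the 27 fits without 1 array this change ran from -2.76 to -1.01. It passed in 1 of them, that without control line 0 h replicate 2, where it was -2.76. Against the line's own 0 h ELF3 passed, at -1.78 (SE 0.428, adjusted p = 0.0274 in limma, with 1.99% of all genes lower). All LEF1 line arrays are of set 2, where no late control line array stands, so for this line the own 0 h is the comparison free of the set.

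EHF in the LEF1 line read 8.42 and 7.50 at 0 h, 8.52 and 7.67 at 6 h, 8.33 at 24 h, and 7.91 and 6.48 at 72 h. Its late arrays were below all control line arrays, as for 7.62% of genes, but so were its 0 h arrays. The late change was -0.65 (95% interval -1.93 to 0.62, adjusted p = 0.739). KLF4, which read 8.55 and 9.0 at 0 h, 7.70 at 24 h, and 7.36 and 8.11 at 72 h, gave -1.09 (95% interval -2.55 to 0.36, adjusted p = 0.587). GRHL2 (6.14 and 7.11 at 0 h, 6.89 at 24 h, 6.97 and 7.54 at 72 h), OVOL2 and ESRP1 gave -0.30, -0.11 and -0.32, with intervals that reach -1.43, -1.11 and -1.12. OVOL1 was detected on 0 of the 3 late arrays and 1 of the 2 at 0 h, at least 1.09-fold below the line's own 0 h. Relative to the control line it did not pass (adjusted p = 0.694 in limma). At 6 h 0 members were called in this line, and 0% of all genes, with no member and 354 genes at an unadjusted p under 0.05.

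Set against each other over 24 and 72 h, each from its own 0 h, the SNAI1 and LEF1 lines did not differ past the threshold for any member in the fit without a replicate block, while 2.73% of all genes were called and 1.72% were lower in the SNAI1 line. The difference was -2.12 for EHF (SE 0.594, adjusted p = 0.0869 in limma), -1.34 for GRHL2 (SE 0.529, adjusted p = 0.283) and -0.97 for OVOL2 (SE 0.469, adjusted p = 0.436). In the LEF1 line same-numbered arrays deviate together, and with that number as a block the EHF difference passed, at -1.85 (adjusted p = 0.0121). It also passed without LEF1 line 72 h replicate 2 (-2.47, 0.0197). For ELF3 the difference of -0.16 (95% interval -1.50 to 1.19) averages times at which the lines stood in opposite order. From its own 0 h ELF3 changed by -0.94 (SE 0.561) in the SNAI1 line against -2.12 (SE 0.561) in the LEF1 line at 24 h, and by -2.95 (SE 0.561) against -1.45 (SE 0.458) at 72 h. Without the 24 h array of either line only 72 h is compared, and the difference was -1.50. Without SNAI1 line 72 h only 24 h is compared, and the difference was 1.18. Neither passed. This comparison leaves out 48 and 96 h, which the LEF1 line lacks, and with them the lowest GRHL2, OVOL2 and EHF values of the SNAI1 line. At 0 h 0 members were called between the SNAI1 and control lines, where 0.0074% of all genes were, and 0 between the LEF1 and control lines, where 0.0222% were. In the control line late against its 0 h limma called 0 members and 0% of all genes, with GRHL2 among 531 genes at an unadjusted p under 0.05.

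**Figure D3:**
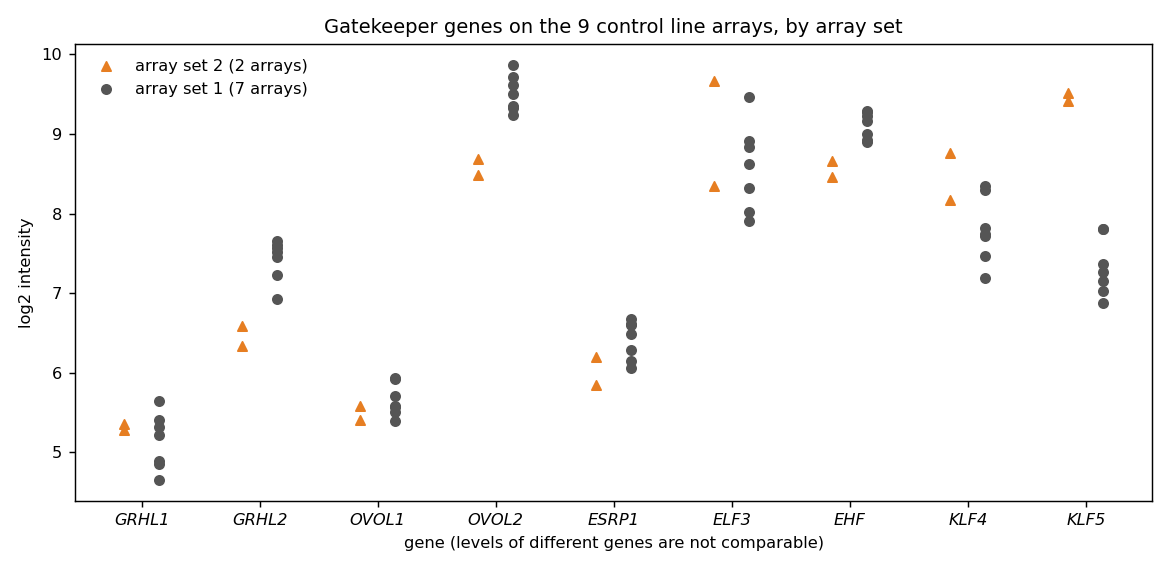
Log2 intensity (vertical axis) of the 9 tested genes on the control line arrays, the 2 of set 2 left of the 7 of set 1. KLF5 reads 9.41 and 9.52 on the set 2 arrays and between 6.88 and 7.80 on those of set 1, and OVOL2 is lower on set 2.

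Some members differed strongly between the array sets in the control line, whose 0 h and 6 h pairs hold 1 array of each set. KLF5 was higher on the set 2 array by 2.26 at 0 h and 2.25 at 6 h, and 0.17% of the 13510 genes had a mean difference at least as large. KLF4 was higher by 1.57 and 0.70, while OVOL2 was lower by 1.19 and 0.87 and GRHL2 by 0.58 and 1.02. ELF3 differed in opposite directions, by 1.75 and -0.27. Over all genes the mean difference had a median of -0.06 and an SD of 0.5, and 5.02% exceeded 1 in size. KLF5 was high, between 8.59 and 9.61, on all 7 LEF1 line arrays, which are of set 2. The 2 control line arrays of that set, at 9.41 and 9.52, lie inside this range.

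Of 33 listed epithelial genes known as targets of these factor families 31 were tested, and 18 were lower and 0 higher late in the SNAI1 line, where 4.8% of all genes were lower and 3.89% higher. The list was chosen with earlier results of these data known, and its median change was -1.41 against 0.02 over all genes. The other 13 did not pass, among them the keratin genes KRT8 (-0.37, adjusted p = 0.617), KRT18 (-0.69, 0.387) and KRT20 (0.03, 0.985). In the SNAI1 line KRT20 was detected on the 2 arrays of 0 h and on 0 late arrays, at least 1.58-fold lower than its own 0 h. That bound leaves out the control line. With the control line subtracted the KRT20 change was 0.03 (SE 0.549), so the control line's own fitted change was about the same. The loss of KRT20 is therefore not shown to be particular to the SNAI1 line. The keratin gene KRT19 was among the 18 lower (-2.03, SE 0.42, adjusted p = 0.00703). These keratin genes are named here after their values were seen. CLDN3 (-5.31, SE 0.613, adjusted p = 7.85e-05) and CLDN7 (-3.13, SE 0.312, adjusted p = 2.13e-05) encode tight junction claudins. PROM2 (-2.95, SE 0.321, adjusted p = 4.81e-05) encodes a protein of membrane protrusions and RAB25 (-2.54, SE 0.295, adjusted p = 8e-05) a GTPase of epithelial recycling endosomes. In the LEF1 line 0 of 31 passed, with a median of -0.18, where 1.15% of all genes were called. The lines differed over 24 and 72 h for 12 of 31, all lower in the SNAI1 line, as for 1.72% of all genes, with a median difference of -1.07. The lowest adjusted p-values were those of the tight junction gene MARVELD3 (-1.94, 0.00344), RAB25 (-2.04, 0.00446), the adhesion gene EPCAM (-1.82, 0.00496) and the membrane traffic gene MAL2 (-1.59, 0.00657).

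**Figure D4:**
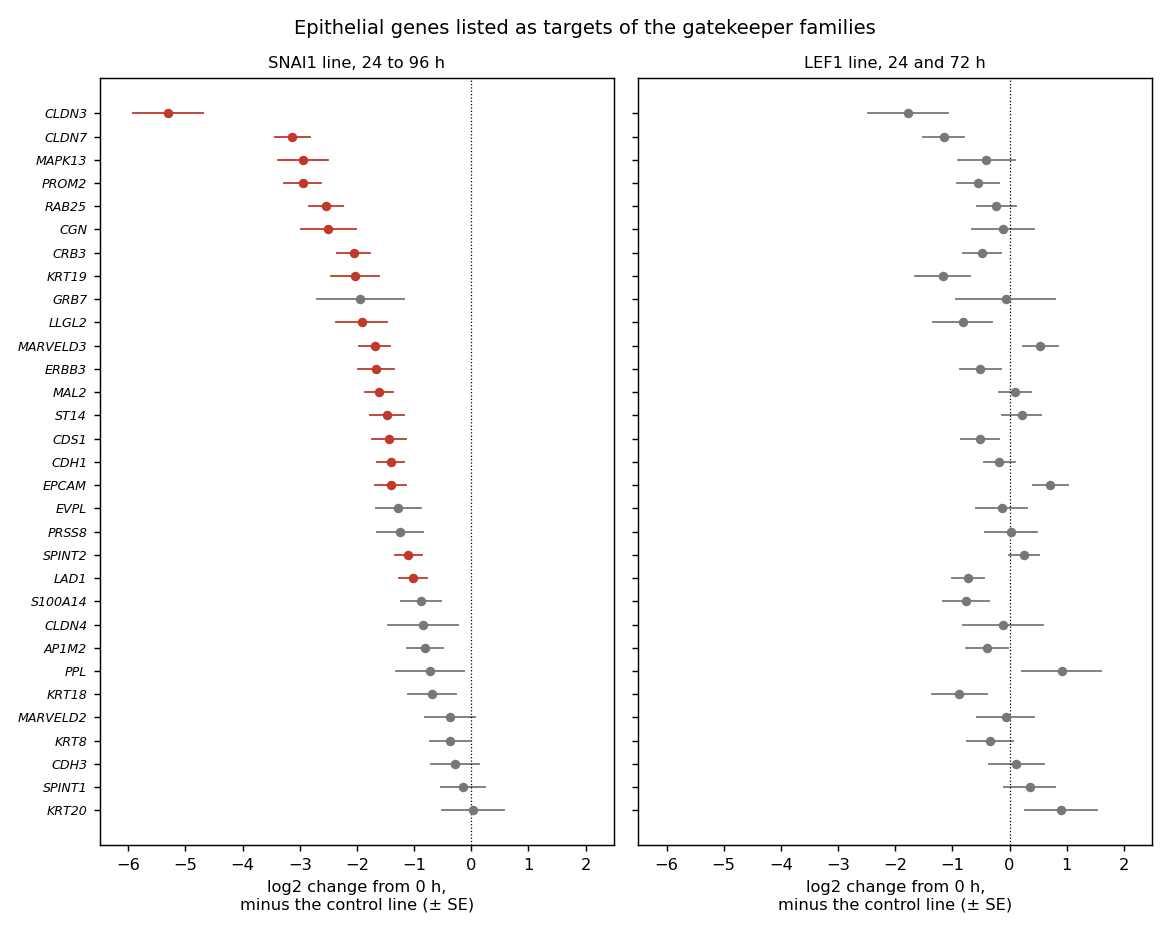
Log2 change from 0 h minus the control line (horizontal axis, ± SE) for the 31 tested epithelial genes listed as targets of the gatekeeper families, late in the SNAI1 line on the left and in the LEF1 line on the right, red where the adjusted p is below 0.05. In the SNAI1 line 18 are red and all of these lie below 0, with CLDN3 lowest at -5.31, and in the LEF1 line none is red.

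Relatives of the members did not move as one. Of 36 listed, 30 were tested, and 2 were higher and 2 lower late in the SNAI1 line, with a median of 0.05. Of all genes 3.89% were higher and 4.8% lower, so the relatives' counts lie near the background. RBM47, an RNA-binding regulator of splicing in epithelia, fell by 2.80 (SE 0.353, adjusted p = 0.00017 in limma), and its fall exceeded that of the LEF1 line (-2.25, adjusted p = 0.00732). ETS2, a widely expressed ETS factor, fell by 1.77 (SE 0.446, adjusted p = 0.0233). The repressor KLF12, not detected at 0 h and detected on all 6 late arrays, ended at least 6.95-fold above the line's own 0 h, and the ETS repressor ELK3 at least 1.85-fold. Their adjusted p-values in limma, 6e-06 and 0.0347, are for the change relative to the control line. KLF12 was the 1 relative called against the control line in the LEF1 line (adjusted p = 0.00815 in limma), where 1.15% of all genes were. It ended at least 1.26-fold above that line's own 0 h.

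Of 17 factors known to oppose the epithelial state 8 were tested, and 4 were higher and 0 lower late in the SNAI1 line, with a median of 0.87 and 3.89% of all genes higher. They were LEF1 (4.53, SE 0.483, adjusted p = 4.08e-05), the signal transducer SMAD3 (1.82, SE 0.296, adjusted p = 0.00128), TGFB2 (adjusted p = 0.000932) and the bHLH factor TCF4 (adjusted p = 0.028), relative to the control line in limma. TGFB2, which encodes a secreted growth factor, ended at least 4.24-fold above the line's own 0 h, and TCF4 at least 1.49-fold. The ZEB1 probe, for a repressor that OVOL proteins are known to hold down, was detected on 0 of 27 arrays. In the LEF1 line the 1 called was LEF1 itself (adjusted p = 0.0369), where 1.15% of all genes were called. It is the gene of that line's transgene, and whether the human probe binds the mouse transcript was not tested. LEF1 averaged 4.88 at 0 h, where it was not detected, 6.01 at 24 h and 9.41 at 72 h. The signal at 24 h, which enters the late mean, was thus low. Among 22 genes whose exons ESRP proteins are known to splice 19 were tested, and 2 were higher and 0 lower late in the SNAI1 line, with a median of 0.44. With 3.89% of all genes higher, 2 of 19 is given as a description only. They were EPB41L5, a regulator of junctions and cell shape (1.46, SE 0.309, adjusted p = 0.00787), and the hyaluronan receptor gene CD44 (0.94, SE 0.233, adjusted p = 0.0209). In the LEF1 line 0 passed. These probes measure the amount of transcript at 1 place, so the splice forms themselves were not measured.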

How the data were processed

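Biotinylated cRNA of 27 LS174T samples was hybridised to Illumina arrays, per the labels. The authors deposited unnormalized log2 intensities beside a detection p-value for each probe and array, per the file headers, and a matrix of quantile-normalized log2 values. That they are on a log2 scale was inferred from their range, while the sources used here do not give the scanner software, background steps or genome build. One LEF1 line array titled 6 h carries 0 h in its time field and was taken as 6 h.

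The neqc function of limma 3.58.1 (R 4.3.3) corrected the background by normexp, taking negative controls from the detection p, then quantile normalized the arrays, with an offset of 16. Of 47323 probes, 32 with missing values were dropped, 30092 had 1 gene symbol in the platform annotation, 8 several and 17191 none. A probe needed a detection p below 0.01 on 2 or more arrays (25629 passed), and each of 13510 genes was represented by its passing probe of highest mean. A limma model had 1 mean for each of the 18 groups of line and time, 9 of them with 2 arrays and 9 with 1, which take their spread from the others (9 residual and 4.92 prior degrees of freedom). Late is the mean of 24, 48, 72 and 96 h (24 and 72 h in the LEF1 line) and early the mean of 3 and 6 h, each minus 0 h and minus the same in the control line. The Benjamini-Hochberg adjustment, at 5%, covered the 13510 genes in each of 9 contrasts. Comparisons with the control line share its arrays, and its 0 h mean holds 1 array of each set.

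Named genes are all 10 members, SNAI1, LEF1 and CDH1, from each list and contrast up to 4 called genes by lowest adjusted p, and the 3 genes most correlated with each called member; ZEB1 is named for its known link to OVOL proteins. The members and lists were chosen with earlier results of these data known. Where a probe was detected on none of a line's late arrays, or none of its 0 h arrays, its fold is a lower bound set against the lowest detected signal. This bound compares the line's late arrays with its own 0 h, without the control line. The labels' replicate numbers were checked by the correlation of same-numbered arrays' deviations. In the LEF1 line all 3 pairs of times lay between 0.47 and 0.52, so there the numbers pair the arrays. In the SNAI1 line 6 pairs lay between -0.01 and 0.13, so there they do not. The 1 control pair, at -0.43, cannot decide this. Its replicate 1 is of set 1 at 0 h and of set 2 at 6 h, so the array set enters with opposite signs. A block for the LEF1 line's numbers was therefore added after seeing the data. The number of arrays limits the precision. The fit was tested on simulated data. Alternatives were the authors' values, no background correction, an offset of 50, other filters and probe rules, limma's trend and robust options, the array set and the replicate number as blocks, other baselines and each array left out. Where the array left out was its line's only one at a time, that time left the contrast for both lines.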

Additional observations from a re-analysis of the deposited data

How the results depend on the processing

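The count of members called late in the SNAI1 line, 5 as reported, was 3 with the authors' normalized values, without background correction, with an offset of 50 and with adjustment over all kept probes; GRHL2, OVOL2 and EHF were called in each of these, and ELF3 (adjusted p of 0.145, 0.145, 0.0871 and 0.0598) and ESRP1 (0.0758, 0.0758, 0.0521 and 0.0548) were not. ELF3 also missed without a filter on detection (0.0658) and ESRP1 with trend and robust (0.0578). OVOL1 (-1.20, 0.00584) and KLF4 (-1.10, 0.0208) passed when compared with control line arrays of the same times. Late minus early, 2 as reported, the count was 1 with the authors' values, without background correction, without the filter and over all kept probes. It was 3 within the array set and 5 against the own 0 h only. For the LEF1 line late, 0 as reported, it was 1 against the own 0 h only (ELF3). Within the array set it was 1 too, but that fit holds LEF1 line arrays alone against their own 0 h, with the same ELF3 change of -1.78. The count was 2 when compared with control line arrays of the same times (ELF3 at -2.06, 0.00741, and EHF at -1.50, 0.0262). Those control line arrays are of set 1, so line and array set cannot be told apart there. In the control line EHF differed between set 2 and set 1 by -0.69 at 0 h and -0.35 at 6 h. Against the own 0 h of the LEF1 line EHF changed by -0.20 (adjusted p = 0.864 in limma).

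With 1 array left out in 27 fits, the counts ran from 1 to 5 for the SNAI1 line late, 1 to 3 for late minus early, 0 to 1 for the LEF1 line late, the SNAI1 minus the LEF1 line and the SNAI1 line at 0 h, and stayed at 0 in the other 4 contrasts. At 0 h the SNAI1 line's 1 call was ELF3 without control line 0 h replicate 1 (-1.75, 0.0305). The count was 1 without control line 96 h or either SNAI1 line 0 h array, and 2 without control line 0 h replicate 2. Over all genes, the 1174 called late in the SNAI1 line became 2712 against the own 0 h only and 3932 against same-time control arrays. The 156 of the LEF1 line became 696 and 1906 in these, and 258 in the fit of LEF1 line arrays alone against their own 0 h. Late minus early, 1120 genes became 1876 within set 1 and 3012 against the own 0 h, and SNAI1 minus LEF1 called 1773 in place of 369 when the lines were compared directly, without 0 h. The 1906 and the 1773 compare arrays of set 2 with arrays of set 1, so line and array set cannot be told apart in them. Of 2196 member values under alternatives, 94 had the opposite sign, none of them called on either side.

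With the replicate block, late minus early called 1 member (OVOL2 missed at 0.0514) and SNAI1 minus LEF1 called 1 (EHF at -2.20, 0.0487); no other count of members changed. Over 36 pairs of groups the correlation of same-numbered arrays' deviations ran from -0.43 to 0.52, and 8 exceeded 0.1, among them the 3 pairs within the LEF1 line, where the numbers therefore pair the arrays. With the replicate block in that line only, chosen after seeing the data, SNAI1 minus LEF1 called 1 member in place of 0 (EHF) and late minus early 3 in place of 2 (GRHL2 added); no other call of a member changed, and the LEF1 line late called 0 members and 225 genes.

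Precision is limited by the number of arrays: 9 of 18 groups have 1 array, set 2 has no late control line array, and GRHL1, ESRP2 and late OVOL1 are at background.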
